A study of Bombyx mori with 6 samples.

Results

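Of 15884 genes counted in testes of the silkworm Bombyx mori, 37 had reads in 1 strain only, 17 in the genetic male sterile line (GMS) and 20 in the wild-type strain 898WB (WT). They were chosen by their read counts, which had to be 0 throughout one strain and 5 or more in every library of the other, with the antibacterial peptide gene Enb3 (26, 15 and 30 reads in GMS, 0 in each WT library) set aside. The GMS group is labelled as the mutant genotype and consists of 3 libraries, and the WT group consists of 3 libraries of strain 898WB. All 6 libraries were made from testes of larvae on day 5 of the fifth instar, and neither the mutated locus nor the genetic distance between GMS and 898WB is given in the sources used here. How many animals went into a library is not given in the sources used here, so the p-values below reflect variation among libraries only, which may be partly technical.

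Laboratory strains of one insect can differ in which genes they carry, in which genes they keep silent, and in how far the sequence of a gene has drifted. A count of 0 reads looks alike in each of these cases: an absent gene, a silent gene and an allele too different to be aligned cannot be told apart from read counts. Long noncoding RNAs, transcripts with no recognised protein product, are abundant in testis in Drosophila. Adipokinetic hormones, of which AKH2 encodes one, are short peptides that insects release from the corpora cardiaca to mobilise stored lipid and sugar from the fat body.

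The 3 GMS libraries held 19627477, 23529412 and 27941504 counted reads, and the 3 WT libraries 28358501, 25492937 and 21690617. WT replicate 3 stood apart: its log2 CPM (counts scaled to library size) correlated with those of WT replicates 1 and 2 at 0.985 and 0.982, against 0.995 between those 2 libraries. The highest germ cell marker was the testis beta-tubulin gene Tub4, at 7185 ± 72.9 RPKM (reads scaled to gene length and library size) in GMS and 9132 ± 872 RPKM in WT (SD, n = 3 each), or 92.7% of the list's level in GMS and 93.4% in WT, while Boule had 2 reads in all in GMS and 1 in WT, with 0 in 1 GMS library and in 2 WT libraries. Over 7 of 8 listed germ cell markers found in the table, the summed level was 7681 to 7843 RPKM in GMS libraries and 8731 to 10332 RPKM in WT libraries. Of the 6 tested, Tub4 and TSSK were lower in GMS (edgeR adjusted p = 0.00156 and 0.00153), while Dmc1, Aubergine and Vlg were higher (edgeR adjusted p = 0.000341 to 0.0264), and Ago3 was low in both strains, at 0.598 ± 0.0487 RPKM in GMS and 0.5 ± 0.0998 RPKM in WT. The 6 fat body and haemolymph markers summed to 85.7 to 93.5 RPKM in GMS and 158 to 217 RPKM in WT, and the 4 haemocyte markers to 19.6 to 22.1 RPKM in GMS and 9.89 to 12.9 RPKM in WT. The haemocyte markers differed in direction. NimB and PPO2 were higher in GMS (edgeR adjusted p = 0.00021 and 0.00261), Scr-c was lower (edgeR adjusted p = 0.000276) and PPO1 was not tested. The part of all these markers in the results below was not tested, and in bulk tissue fewer cells of a type and less RNA per cell cannot be told apart.

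Genes with reads in GMS only made up 17 of the 12149 genes with at least 5 reads in each GMS library, or 0.14%. Genes with reads in WT only made up 20 of the 12106 genes with at least 5 reads in each WT library, or 0.165%. Other genes had only a few reads in the other strain. Among genes with at least 5 reads in each GMS library, 15 had 1 read over the 3 WT libraries, 10 had 2 reads and 25 had 3 to 5 reads. In the opposite direction 13 genes had 1 read over the 3 GMS libraries, 7 had 2 reads and 36 had 3 to 5 reads. From 0 to 1 to 2 reads the number of genes fell in both directions. The range of 3 to 5 reads spans several values, so its number is not like those of single values. The number in GMS only was 28 without WT replicate 1, 27 without WT replicate 2 and 22 without WT replicate 3, since a gene then needs fewer counts of 0, and all 17 were among them each time. Not all genes gained without WT replicate 3 were near 0 there. GeneID110386323 had 76, 122 and 81 reads in GMS and 0, 0 and 114 in WT. GeneID105842422 had 8, 12 and 15 in GMS and 0, 0 and 16 in WT. The others gained, LOC101738693, LOC101743424 and glv1, had 1 read each in that library.

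**Figure D1:**
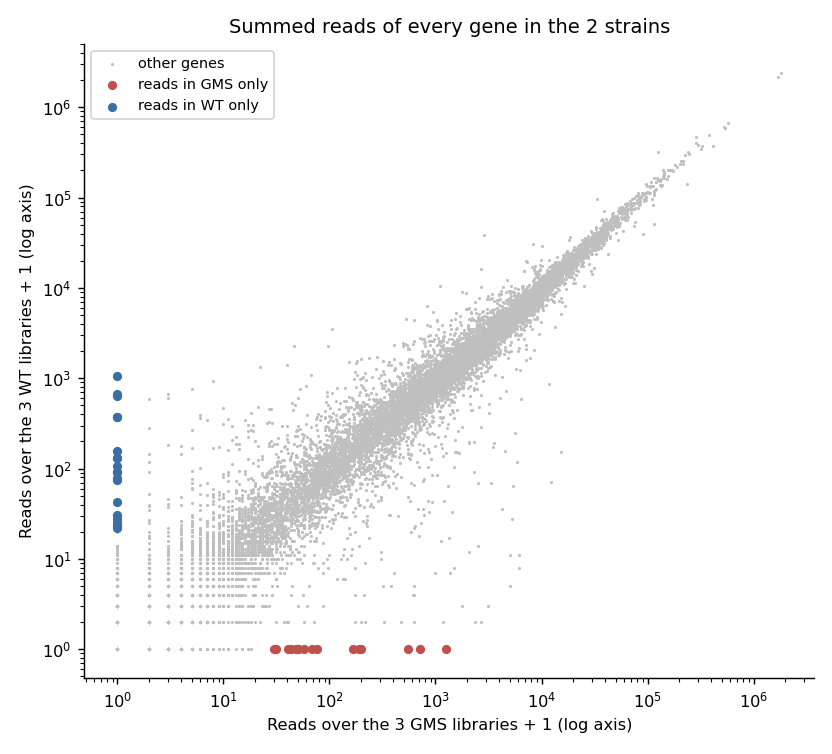
Each point is 1 gene, placed by its reads summed over the 3 GMS libraries (horizontal, log axis, plus 1) and over the 3 WT libraries (vertical, log axis, plus 1). The 17 genes with reads in GMS only lie along the bottom edge between 29 and 1257 reads and the 20 genes with reads in WT only along the left edge between 21 and 1057 reads, while grey points next to them on each edge are genes that missed the rule, Enb3 among them.

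The genes with reads in GMS only were led by 3 transcripts of moderate level. LOC105841496, a protein-coding gene with a counted length of 439 bases, had 338, 418 and 501 reads in GMS replicates 1 to 3, against 0 reads in each WT library. Its level was 16.0, 16.2 and 16.6 RPKM, a mean of 16.3 ± 0.329 RPKM (SD, n = 3), which lay above 78.7% of genes detected in GMS. All 3 GMS libraries gave nearly the same level, with a ratio of the highest to the lowest of 1.04.

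LOC101735346, also protein-coding, had 162, 168 and 214 reads in GMS and 0 in each WT library, a level of 7.48 ± 0.596 RPKM over 416 bases. GeneID101735534, whose number is not in the RefSeq gene table used for names, had 212, 240 and 258 reads in GMS and 0 in each WT library, a level of 6.84 ± 0.536 RPKM over 596 bases. These 3 genes took 69.7% of the 3601 reads counted over all 17, and the other 14 lay well below them. The next in level was the long noncoding RNA LOC110386157, with 34, 68 and 63 reads in GMS and 0 in each WT library, a level of 2.27 ± 0.557 RPKM.

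AKH2, the adipokinetic hormone gene, had 16, 17 and 24 reads in GMS libraries and 0 in each WT library. Its level in GMS was 0.608, 0.531 and 0.641 RPKM, a mean of 0.594 ± 0.0563 RPKM (SD, n = 3), above 18.4% of detected genes, and the 3 libraries agreed within a ratio of 1.21. With 3 reads over the 3 WT libraries as the floor that a count of 0 allows, AKH2 was at least 18.8-fold higher in GMS.

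The related hormone and receptor genes were looked up after the values of AKH2 were seen. AKH3 had 3, 5 and 5 reads in GMS and 3, 1 and 3 in WT. AKH1 had 0 reads in each GMS library and 3, 1 and 1 in WT, and the gene of the related peptide corazonin, Crz, had 2 reads in all in GMS and 5 in WT. These 3 peptide genes were too low to be tested.

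Akhr, the gene of the adipokinetic hormone receptor, had 74, 110 and 115 reads in GMS and 186, 171 and 116 in WT. Its level was 0.909 ± 0.0918 RPKM in GMS and 1.39 ± 0.206 RPKM in WT. The receptor gene was lower in GMS by edgeR's quasi-likelihood test, with a log2 change of -0.67 (standard error 0.14, Benjamini-Hochberg adjusted p = 0.00971 over all genes tested). The hormone gene had reads in GMS only, while its receptor gene was lower in GMS.

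The remaining genes with reads in GMS only were low. GeneID110385435 had 61, 57 and 81 reads in GMS (0.917 ± 0.122 RPKM), and the protein-coding LOC110384696 had 51, 70 and 69 (0.506 ± 0.0453 RPKM over 2142 bases), both with 0 reads in each WT library. GeneID101746762 and the long noncoding RNA LOC105841600 had 67 and 76 reads in all in GMS and 0 in WT. The other 8 had 29 to 50 reads in all in GMS, which is a level of 0.0601 to 0.539 RPKM. They were the protein-coding LOC101745132, LOC110384836 and LOC101743279, and GeneID110386580, GeneID105842792, GeneID110386309, GeneID101740810 and GeneID105842065.

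**Figure D2:**
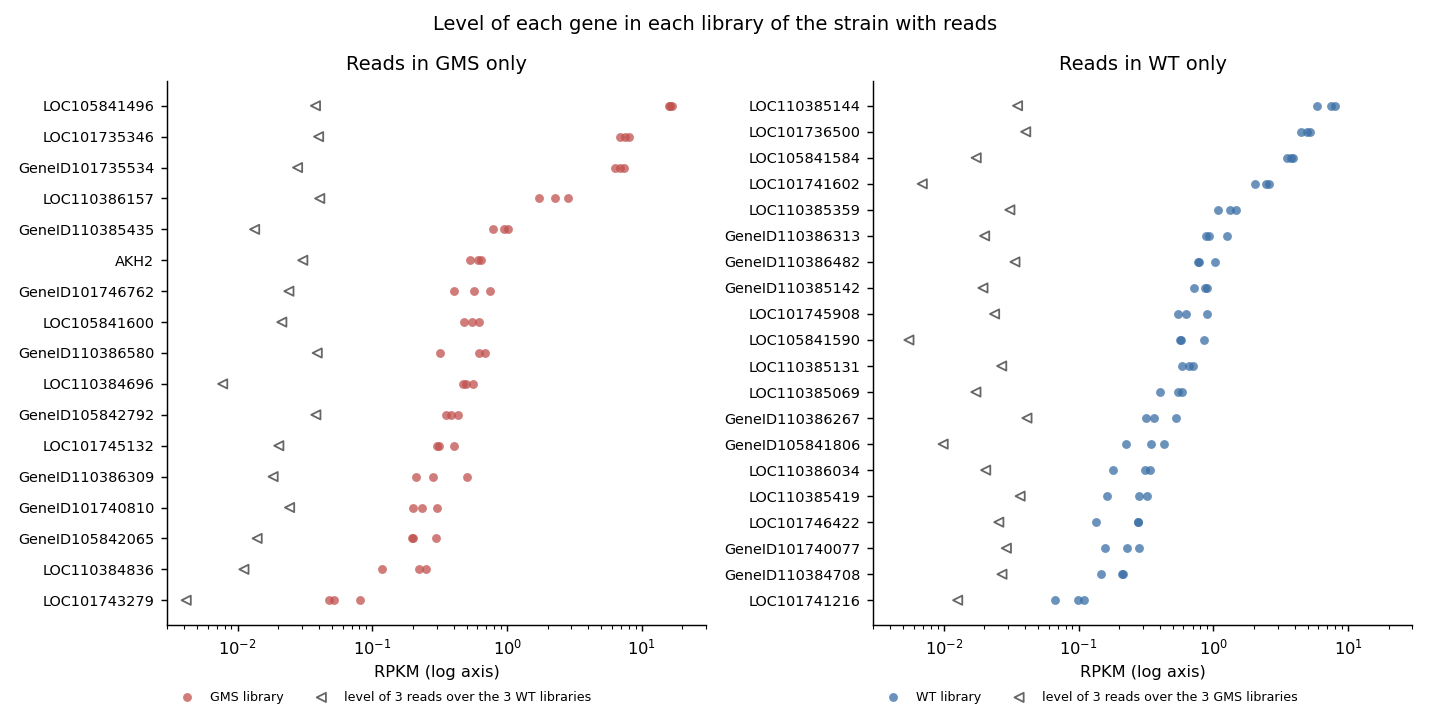
Levels of the 17 genes with reads in GMS only (left) and of the 20 genes with reads in WT only (right), in RPKM on a log axis, with 1 filled point for each library of the strain with reads and an open triangle at the level that 3 reads over the 3 libraries of the other strain would give. The libraries of a strain lie close together for the upper genes (16.0 to 16.6 RPKM for LOC105841496 in GMS) and spread out for genes of few reads, where the points also come nearer to the triangle.

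The genes with reads in WT only were led by long noncoding RNAs. LOC110385144, with a counted length of 485 bases, had 0 reads in each GMS library and 260, 217 and 153 in WT replicates 1 to 3. Its level in WT was 8.02, 7.45 and 5.85 RPKM, a mean of 7.11 ± 1.12 RPKM (SD, n = 3), above 63.8% of genes detected in WT. LOC101736500 had 0 reads in GMS and 139, 131 and 101 in WT (4.84 ± 0.371 RPKM), and LOC105841584 had 0 in GMS and 249, 229 and 185 in WT (3.72 ± 0.203 RPKM). These 3 noncoding transcripts held the upper places by level, each with its lowest value in WT replicate 3.

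Among protein-coding genes with reads in WT only, LOC101741602 had the most reads, 0 in each GMS library against 404, 384 and 269 in WT (2.35 ± 0.296 RPKM over 2471 bases). LOC110385359 had 0 in GMS and 54, 44 and 32 in WT (1.29 ± 0.196 RPKM). LOC105841590, a longer gene of 3102 bases, had 0 in GMS and 118, 107 and 142 in WT (0.664 ± 0.16 RPKM). In contrast to the noncoding genes above, LOC105841590 was highest in WT replicate 3.

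Of the genes not in the RefSeq table, GeneID110386313 had 53, 45 and 58 reads in WT (1.03 ± 0.209 RPKM), GeneID110385142 had 51, 38 and 42 (0.827 ± 0.0915 RPKM) and GeneID110386482 had 26, 24 and 28 (0.86 ± 0.143 RPKM), all with 0 reads in each GMS library. GeneID105841806 and LOC101745908 had 106 and 91 reads in all in WT. The long noncoding LOC110385131 and the protein-coding LOC110385069 had 74 and 91. The remaining 7, with 21 to 42 reads in all in WT and a level of 0.0918 to 0.4 RPKM, were LOC110386034, LOC110385419, LOC101746422, LOC101741216, GeneID110386267, GeneID101740077 and GeneID110384708.

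A count of 0 bounds how high a gene can be in the strain without reads, and the least fold difference then follows from the reads in the other strain. With a floor of 3 counts over the 3 libraries and TMM-normalised library sizes, the genes with reads in GMS only were at least 9.57-fold to 415-fold higher in GMS, with a median bound of 18.8-fold. The genes with reads in WT only were at least 7.07-fold to 356-fold lower in GMS, with a median bound of 30.6-fold. The bound exceeded 10-fold for 15 genes in GMS only and 15 in WT only, and 100-fold for 3 in GMS only and 5 in WT only. The floor covers counting error of the 0 counts only, and the reads of the other strain are taken as observed. The bounds are therefore least firm for genes of few reads.

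Reads were few for a good part of both sets. In GMS only, 3 genes (GeneID105842792, GeneID101740810 and GeneID110386580) and in WT only 7 genes did not pass edgeR's filter on low counts and were not tested. The 14 tested in GMS only and the 13 tested in WT only were all called, beside 17.6% of 12029 genes called higher and 18.6% called lower in GMS, but the rule used the same counts, so nothing is read from this.

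Just inside the rule lay genes of 5 to 9 reads in their lowest library, 3 in GMS only and 7 in WT only. LOC110385419 had 5, 9 and 7 reads in WT, GeneID110384708 had 9, 8 and 5 and GeneID101740077 had 11, 8 and 5, with 0 reads in each GMS library. In the other direction GeneID105842792 had 8, 9 and 13 reads in GMS, GeneID110386580 had 14, 8 and 18 and GeneID101740810 had 10, 8 and 11, with 0 reads in each WT library. Just outside, 30 genes had 0 reads in WT but only 1 to 4 reads in their lowest GMS library, led by LOC101741114 with 1, 10 and 6 reads in GMS. In WT 45 genes were like this, led by GeneID101742473 with 10, 3 and 9 reads.

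In GMS 15 genes missed the rule by a single read in WT, some of them with more reads than any gene inside it. LOC101743424 had 736, 952 and 983 reads in GMS and 0, 0 and 1 in WT, a level in GMS of 6.67 ± 0.418 RPKM. GeneID101743359 had 663, 741 and 941 reads in GMS and 0, 1 and 0 in WT (13.1 ± 0.618 RPKM in GMS), and GeneID101738202 had 313, 407 and 451 in GMS and 1, 0 and 0 in WT (5.68 ± 0.203 RPKM in GMS). The cuticular protein gene CPH22 and the gloverin gene glv1, which encodes an antibacterial peptide, were in this group too, with 623 and 476 reads in GMS and 1 read each in WT.

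In the opposite direction 13 genes had a single read in GMS. LOC101739410 had 0, 0 and 1 reads in GMS and 229, 200 and 161 in WT (1.73 ± 0.122 RPKM in WT). The long noncoding LOC110385132 had 0, 1 and 0 reads in GMS and 100, 69 and 110 in WT (2.02 ± 0.58 RPKM in WT). GeneID101745371 followed, with 1 read in GMS and 145 in WT.

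By gene class, the 17 genes with reads in GMS only comprised 7 protein-coding genes, 2 long noncoding RNAs and 8 whose numbers are not in the RefSeq table, so that their class is not known here. The 20 genes with reads in WT only comprised 6 protein-coding genes, 7 long noncoding RNAs and 7 not in the table. Protein-coding genes made up 41.2% of the genes in GMS only, against 83.5% of all genes detected in GMS, and 30% of the genes in WT only, against 83.9% of all genes detected in WT. Long noncoding RNAs made up 11.8% of the genes in GMS only, against 3.3% of detected genes, and 35% of those in WT only, against 3.26%.

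Put the other way round, 7 of 395 long noncoding RNAs detected in WT had no read in GMS, or 1.77%, and 2 of 401 detected in GMS had none in WT, or 0.499%. Of protein-coding genes it was 0.069% of 10142 in GMS and 0.0591% of 10155 in WT. Of genes not in the table it was 0.516% of 1549 in GMS, close to the share of long noncoding RNAs, and 0.468% of 1496 in WT, below it. These shares are descriptions without a test, and the classes differ in level: the median over detected genes in GMS was 5.18 RPKM for protein-coding genes, 1.38 RPKM for long noncoding RNAs and 1.56 RPKM for genes not in the table.

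**Figure D3:**
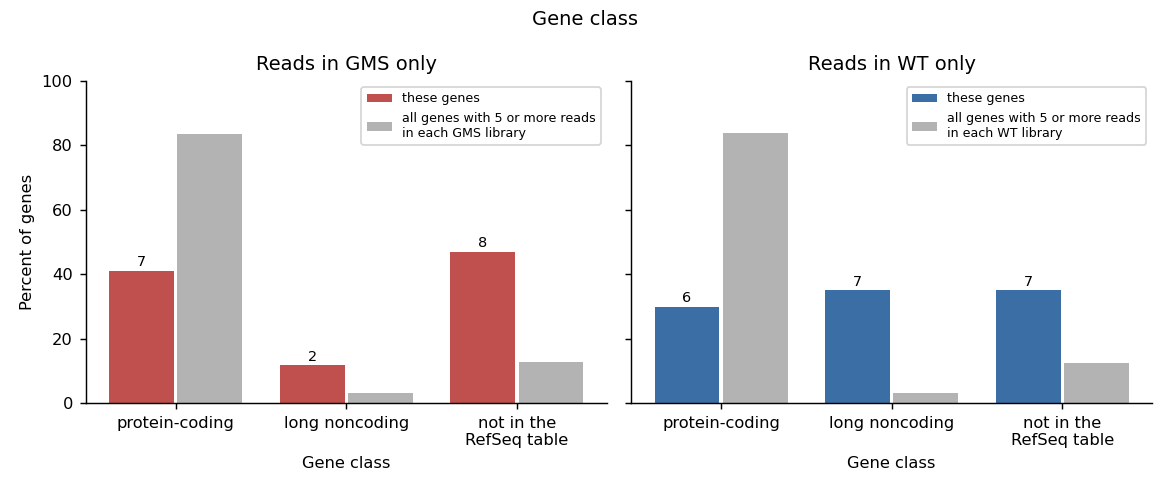
Share of each gene class (percent, bars from 0) among the 17 genes with reads in GMS only and the 20 with reads in WT only (coloured, number of genes above each bar), beside all genes with at least 5 reads in each library of the same strain (grey). Protein-coding genes hold 41.2% and 30% of the coloured bars against 83.5% and 83.9% of the grey ones.

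Genes of both sets were short and low. The counted length had a median of 691 bases in GMS only (408 to 3996) and 693 bases in WT only (413 to 3102), against 1932 and 1937 bases over all genes detected in GMS and in WT. The median level was 0.539 RPKM in GMS only and 0.656 RPKM in WT only, against 4.33 RPKM over all genes detected in GMS and 3.88 RPKM over all detected in WT. At least 1 RPKM was reached by 4 of the 17 and 6 of the 20, and at least 5 RPKM by 3 and 1. Short and low genes have few reads, and a gene of few reads reaches a count of 0 more easily, so length and level are tied to the rule.

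**Figure D4:**
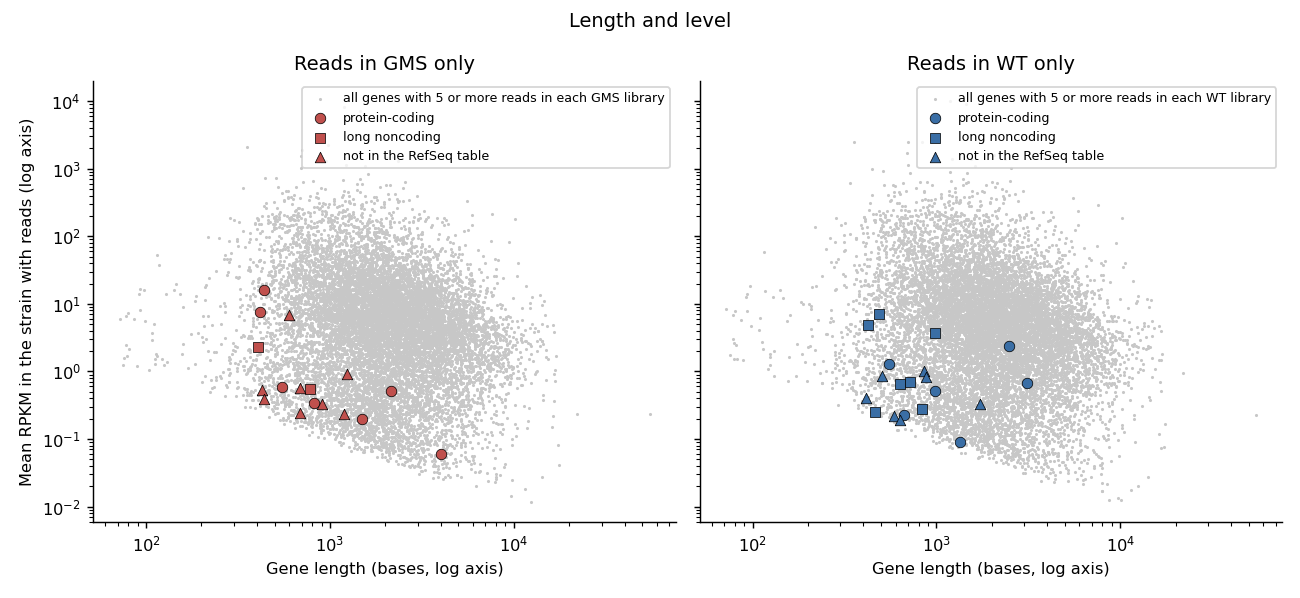
Counted gene length (bases, log axis) against mean RPKM over the 3 libraries of the strain with reads (log axis), for genes with reads in GMS only (left) and in WT only (right), with symbols for gene class and all detected genes in grey. Most coloured points lie at the lower left of the grey cloud, around medians of 691 bases and 0.539 RPKM in GMS and 693 bases and 0.656 RPKM in WT.

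Within the strain with reads, the ratio of the highest to the lowest library in RPKM was under 2 for 14 of 17 genes in GMS only (82.4%, against 96.9% of all genes detected in GMS) and for 18 of 20 in WT only (90%, against 92.8% of all detected in WT), with medians of 1.34 and 1.44, against 1.12 and 1.22 over all genes detected in GMS and in WT. The widest was GeneID110386309, with 22, 15 and 13 reads in GMS and a ratio of 2.41. WT replicate 3 was the lowest of the WT libraries for 10 of the 20 genes, or 50%, and for 47.7% of all genes detected in WT.

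Positions were compared by gene order on the RefSeq assembly ASM3026992v2, since the build of the count table is not given in the sources used here. Of the 17 genes in GMS only 9 were placed, on 6 chromosomes, and of the 20 in WT only 13 were placed, also on 6 chromosomes. Chromosome 17 carried 5 of the placed genes in WT only, which is 1.1% of the 453 genes detected there in WT, against 0.123% over all placed genes. Chromosome 7 carried 3 more, or 1.05% of 287. Of the genes in GMS only, chromosome 27 carried 2, or 1.35% of the 148 detected there in GMS, and chromosome 3 carried 3, or 0.811% of 370, against 0.0849% over all placed genes.

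On chromosome 7 both directions lay near one another in gene order. AKH2, with reads in GMS only, was followed by LOC105841584, LOC101741602 and LOC110385359, all with reads in WT only, and 9, 8 and 11 other genes of the count table lay between one and the next. On chromosome 27 LOC101745132 and LOC110384696, both with reads in GMS only, had 4 genes between them. On chromosome 17 LOC101745908 and LOC110385419 had 1 gene between them, and 32, 23 and 13 genes separated LOC110385419, LOC101746422, LOC105841590 and LOC110385131.

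Counts of neighbouring genes did not enter the rule. The 2 nearest tested genes on each side of each placed gene were taken from the edgeR fit over all 12029 genes. Around genes with reads in GMS only there were 33 such neighbours, of which 8 were higher in GMS (24.2%, beside 17.6% of all genes tested), 10 were lower (30.3%, beside 18.6%) and 15 were not called. At least 2-fold, 6 were higher (18.2%, beside 5.04%) and 5 lower (15.2%, beside 5.25%).

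Around genes with reads in WT only there were 48 neighbours, of which 11 were higher in GMS (22.9%), 21 were lower (43.8%) and 16 were not called. At least 2-fold, 2 were higher (4.17%) and 12 lower (25.0%), beside the same 5.04% and 5.25%. The neighbours were somewhat lower in level than tested genes in general, with median CPM of 13.2 around genes in GMS only and 14.7 around genes in WT only, against 22 over all tested genes. Median log2 changes were -0.11 and -0.13, against 0.05 over all tested genes. No test of these shares was made, and neighbours of close pairs are shared. Of the 48 neighbours, 6 overlap the span of the gene they adjoin, introns included, and whether they share exons with it was not tested. Without these 6, 18 of 42 were lower in GMS (42.9%), 10 of them at least 2-fold, and 11 were higher.

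LOC101735346, with reads in GMS only, lay next to the cuticular protein genes CPH23 and CPH22 on chromosome 11. CPH23 stood at 58.6, 55.5 and 57.1 CPM in GMS libraries and at 0.331, 0.573 and 0.566 CPM in WT libraries, a log2 change of 6.87 (standard error 0.15, edgeR adjusted p = 2.84e-07). CPH22 had 623 reads in GMS and 1 in WT, a ratio of normalised counts of 617 with a 95% counting interval of 110 to 24394. The nearest tested gene on the other side, the cuticular protein gene CPH34, was lower in GMS, with a log2 change of -1.43 (edgeR adjusted p = 0.0254). That call was lost in 5 alternatives, among them DESeq2 (adjusted p = 0.067) and each fit without 1 GMS library (adjusted p = 0.0702 to 0.0838). CPH23 had 4193 reads in all in GMS and 35 in WT, so that LOC101735346, CPH23 and CPH22 form a run of 3 adjacent genes with most or all of their reads in GMS.

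On chromosome 27, 2 of the 5 tested neighbours of the pair in GMS only were higher in GMS, 1 was lower and 2 were not called. LOC101735964, next to LOC110384696, stood at 2.71, 3.33 and 2.72 CPM in GMS and at 0.0735, 0.123 and 0.141 CPM in WT, with a log2 change of 4.67 (edgeR adjusted p = 1.74e-05). LOC101736886, which lies between the pair, stood at 1.39 ± 0.112 CPM in GMS and 0.288 ± 0.0726 CPM in WT (SD, n = 3), a log2 change of 2.25. The GMS and WT libraries did not overlap for either gene. LOC101741132, on the far side of LOC101745132, went the other way, with a log2 change of -1.54 (edgeR adjusted p = 0.00162).

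LOC110384836 on chromosome 3 was followed by LOC101737013, at 6.26, 7.49 and 9.76 CPM in GMS and 0.0735, 0.573 and 0.141 CPM in WT (log2 change 4.89, edgeR adjusted p = 0.000192). Its neighbour on the other side, LOC101743819, was lower, at 2.06 ± 0.209 CPM in GMS and 8.48 ± 0.618 CPM in WT. Beside AKH2, LOC101735785 was higher at 27.7 ± 1.26 CPM in GMS and 2.68 ± 0.421 CPM in WT, while Ras2, a small GTPase gene, was lower at 1.21 ± 0.252 CPM in GMS and 3.62 ± 0.269 CPM in WT. LOC101736456, near LOC110386157 on the same chromosome as LOC110384836, was lower at 2.46, 2.43 and 2.38 CPM in GMS and 19.4, 20.6 and 21.4 CPM in WT (log2 change -3.08, edgeR adjusted p = 1.02e-06).

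The gene of highest level in GMS only had no such surroundings. None of the 4 neighbours of LOC105841496 was called, and their log2 changes ran from -0.22 to -0.10 (lowest edgeR adjusted p = 0.0818). LOC101740450, which overlaps its span and is not among these 4, was not called either (log2 change 0.42, edgeR adjusted p = 0.0804). In all, 5 of the 9 placed genes in GMS only had at least 1 neighbour that was higher in GMS by at least 2-fold, and 6 had at least 1 that was lower by as much. Over the other 13007 placed genes, 18.1% had such a higher neighbour and 19.8% such a lower one. LOC101745132 and LOC110384696 count through the same neighbours, LOC101736886 and LOC101735964 on the higher side and LOC101741132 on the lower.

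Among genes with reads in WT only, the pair on chromosome 17 enclosed a gene that was lower in GMS. LOC101746710, between LOC101745908 and LOC110385419, stood at 0.591, 0.617 and 0.655 CPM in GMS libraries and 7.06, 7.16 and 6.69 CPM in WT libraries, a log2 change of -3.47 (standard error 0.13, edgeR adjusted p = 2.79e-06). LOC105841807, on the outer side of LOC101745908, was lower as well, at 2.27 ± 0.228 CPM in GMS and 6.2 ± 0.627 CPM in WT (SD, n = 3). These are 4 adjacent genes of the count table, each lower in GMS or without reads there. Of them, LOC110385419 had only 5, 9 and 7 reads in WT and was not tested, and LOC101746710 overlaps its span.

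For LOC110385144, the noncoding RNA of highest level in WT only, the nearest tested genes after it were LOC101741765 and LOC105841592. They lay 3 and 4 genes away and were both lower in GMS. On the other side LOC101741910, 1 gene away and overlapping its span, was not called (log2 change 0.23, edgeR adjusted p = 0.188). LOC101742054, 2 genes away on that side, was lower (log2 change -0.65, edgeR adjusted p = 0.00973). LOC101741765 stood at 2.63 ± 0.152 CPM in GMS and 13.5 ± 0.788 CPM in WT, and LOC105841592 at 1.49 ± 0.39 CPM in GMS and 7.67 ± 0.178 CPM in WT, with log2 changes of -2.35 and -2.34 (edgeR adjusted p = 5.3e-06 and 6.97e-05). Next to LOC101736500, the glycine-rich cuticular protein gene CPG24 was higher in GMS with a log2 change of 2.35 (edgeR adjusted p = 0.0198) and LOC101741695 lower with -1.11 (edgeR adjusted p = 0.0232). Both had few reads, and their calls were lost in 2 alternatives for CPG24 (edgeR adjusted p = 0.0848 without GMS replicate 3) and in 4 for LOC101741695 (adjusted p = 0.0741 with DESeq2).

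LOC110385131 lay between 2 genes of the yellow family, which acts in insect pigmentation, and these moved in opposite directions. Y-d was lower, at 2.32, 2.14 and 3.21 CPM in GMS and 9.88, 9.45 and 9.57 CPM in WT (log2 change -1.90, edgeR adjusted p = 0.000113). Y-e was higher, at 28.0, 33.4 and 29.1 CPM in GMS and 13.4, 14.6 and 20.8 CPM in WT (log2 change 0.89, edgeR adjusted p = 0.00538). WNT-1, a signalling ligand gene next to LOC101741216, was lower at 0.349 ± 0.127 CPM in GMS and 1.26 ± 0.13 CPM in WT.

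LOC105841590, the long gene on the same chromosome as LOC110385131, stood among neighbours of which none was called, with log2 changes from -0.14 to 0.34 (lowest edgeR adjusted p = 0.153). Altogether 10 of the 13 placed genes in WT only had at least 1 neighbour that was lower in GMS by at least 2-fold, and 2 had at least 1 that was higher by as much, beside the same 19.8% and 18.1% of other placed genes. LOC101745908 and LOC110385419 count through the same neighbours, LOC101746710 and LOC105841807. LOC110385131 counts only through Y-d, which overlaps its span. These per-gene counts rest on up to 4 neighbours each, and 1 gene in each set had no called neighbour.

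**Figure D5:**
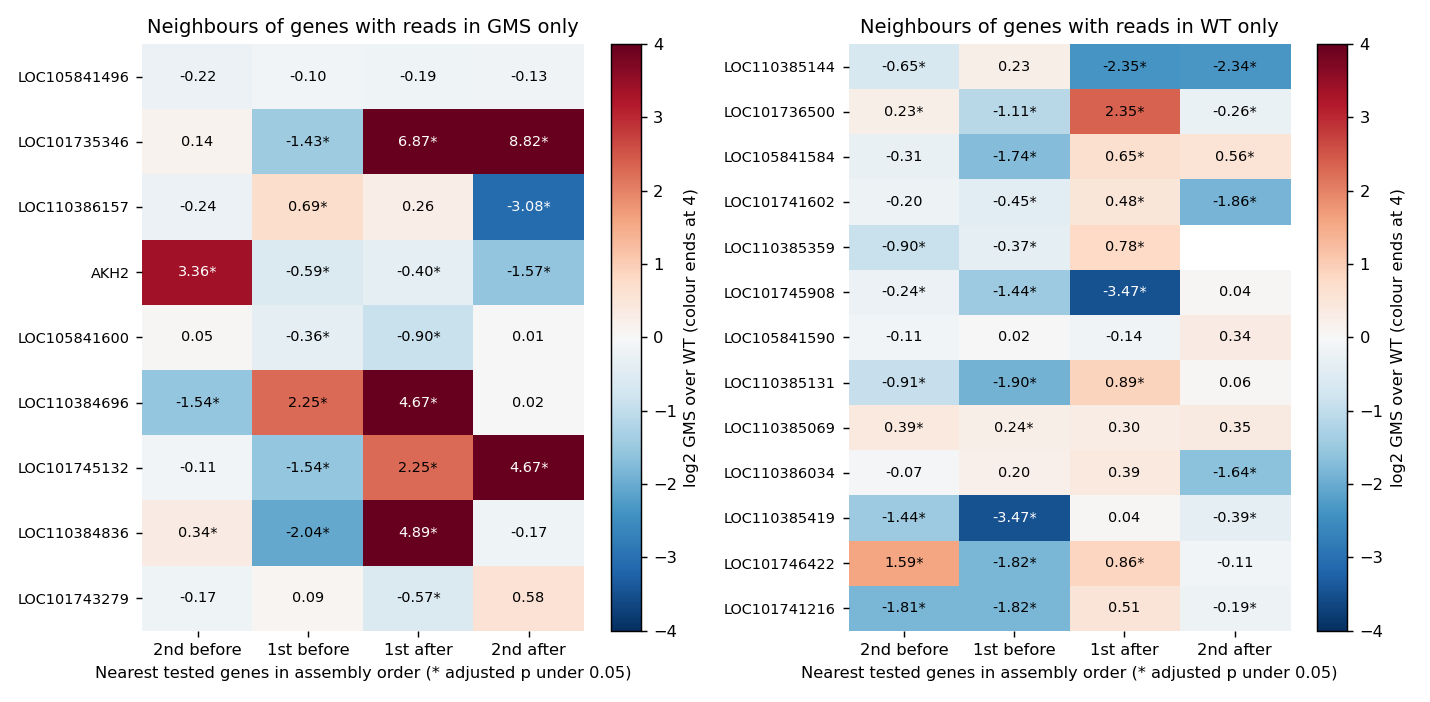
Log2 change (GMS over WT) of the 2 nearest tested genes before and after each placed gene, in assembly order, for genes with reads in GMS only (left) and in WT only (right), ordered by level, with red higher in GMS, blue lower, and a star at edgeR adjusted p under 0.05. Around LOC105841496 no neighbour is starred, around LOC101735346 CPH23 reaches 6.87 (the fitted 8.82 of CPH22 rests on 1 read in WT and depends on the prior count), and LOC101746710 at -3.47 appears beside both genes of the chromosome 17 pair.

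Several of these genes share ground with another gene. The library kit does not mark the strand, so reads on sequence shared by overlapping genes cannot be told apart by strand. Overlap is of whole spans, introns included, and whether exons are shared was not tested. On the RefSeq assembly 1 of 9 placed genes in GMS only and 9 of 13 in WT only overlap the span of another annotated gene, which has reads in these libraries for 1 and 6 of them. LOC105841496 overlaps LOC101740450, with 243 reads in GMS and 179 in WT, which was not called (log2 change 0.42, edgeR adjusted p = 0.0804). Some partners of genes in WT only had reads in both strains. LOC101738393 had 3502 reads in GMS and 4465 in WT, while LOC110385359, whose span it overlaps, had 0 in GMS. LOC101741910 had 1023 in GMS and 855 in WT, while LOC110385144, whose span it overlaps, had 0 in GMS. Y-d and LOC101746710, both lower in GMS, overlap LOC110385131 and LOC110385419.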

How the data were processed

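RNA sequencing of 6 testis libraries (3 GMS, 3 WT) was used as deposited. The submitters' processing notes name HISAT2 2.1.0 and featureCounts 1.6.2; the genome build is not given in the sources used here. Deposited by the authors were raw read counts per gene, as whole numbers, and RPKM values per gene, per the file headers. Counts divided by RPKM gave a gene length whole within 0.01 bases for 100% of 15059 genes with reads, with RPKM scaled to 48248888 to 68701498 reads a library. Gene names, classes and order came from the RefSeq table of ASM3026992v2, which matched 13030 of 15884 gene numbers.

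The genes and lists were chosen with earlier results of these data known, so counts of the 37 genes are descriptions without a test. Genes were tested over the whole table with the edgeR 4.0.16 quasi-likelihood test in R 4.3.3 (TMM factors, filterByExpr, 12029 genes kept, Benjamini-Hochberg adjusted p under 0.05), which was checked on simulated counts. Levels per length are deposited RPKM, levels of neighbours TMM-normalised CPM. Per library, 3 counts are worth 0.106 to 0.153 CPM, from totals of 19627477 to 28358501 counted reads; intervals (95%, exact binomial) and floors cover counting error only.

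Genes were named by a rule, in each direction the 10 of highest level, any with a product name, the 3 of lowest minimum count, the 3 just outside the rule, and up to 4 called neighbours of largest change. Other names were chosen after their values were seen. Markers were Tub4, TSSK, Dmc1, Aubergine, Siwi, Ago3, vlg and Boule (germ cells), LP3, LP4, Lp-c6, Lp-c23, Sp1 and Sp2 (fat body, haemolymph), and PPO1, PPO2, NimB and Scr-c (haemocytes). By edgeR 3 of the germ cell genes were higher and 2 lower in GMS, 0 and 6 of the fat body genes, and 2 and 1 of the haemocyte genes. A planned comparison with similar proteins was not run. Alternatives were DESeq2 1.42.0, other scaling factors, no filter, a replicate block, other minimum counts and leaving out each library.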

Additional observations from a re-analysis of the deposited data

How the results depend on the processing

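The number of genes in GMS only and in WT only followed the minimum count: 47 and 65 with at least 1 read in each library, 19 and 26 with 3, 14 and 13 with 10, and 5 and 5 with 50. Allowing 1 read in the other strain gave 32 and 33, and a minimum of 0.1 RPKM gave 18 and 21, of which 16 and 19 were among the 17 and 20. Leaving out 1 library gave 17 to 28 genes in GMS only and 21 to 29 in WT only, and all 17 and 20 stayed in each, since the rule is looser with fewer libraries.

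Of all genes, 2115 were higher and 2242 lower in GMS; at least 2-fold 606 and 632, with library totals only, which moved the median log2 change of all genes by 0.10, 3264 and 1695, and with DESeq2 1888 and 2244. Leaving out 1 library gave 1360 to 3549 higher and 1634 to 3555 lower, the upper ends without WT replicate 3. Neighbours of genes in GMS only that were higher numbered 8 (5 with the nearest 1 on each side, 23 of 81 with the nearest 5), and 6 to 10 with 1 library left out. The 10 came without WT replicate 3, where 3549 of all genes were higher, against 2115 in the main fit. With library totals only it was 9 of 33, beside 3264 of all genes. These neighbour counts are therefore to be read beside the number called over all genes in the same fit. Neighbours of genes in WT only that were lower numbered 21 (10 with the nearest 1, 35 of 109 with the nearest 5, 12 at 2-fold or more), and 15 to 22 with 1 library left out. The 22 came without WT replicate 3, where 3555 of all genes were lower, against 2242 in the main fit.

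Same-numbered libraries of the strains did not deviate together (correlations of 0.05, -0.17 and -0.17). No pairing by number was seen, but 3 libraries a strain cannot exclude that same-numbered libraries were handled together. With the replicate block 1450 genes were higher and 1701 lower, and 6 and 17 of the neighbours. For 20 other named genes, Akhr and called neighbours, the call was followed through the alternative fits. Of these, 17 were called in every fit that gave them a value, none reversed, and CPH34, CPG24 and LOC101741695 lost their calls in some. Not every gene given with a log2 change was followed, and LOC101742054 was not. The cause of these shifts was not tested. Leaving out neighbours that overlap the gene they adjoin, chosen after seeing the data, gave 8 higher and 18 lower neighbours. The alternatives on similar proteins were not run. Genes of under 10 reads in a library are limited by depth.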
